A study of Mus musculus with 4 samples.

Results

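Interferon-induced antiviral effector genes were read gene by gene in 4 mouse oral cancer cell lines. The group was a fixed list of 36 genes that encode sensors of foreign RNA and the proteins that act against viruses, and each of the 36 was matched by its GENCODE M21 identifier to an entry among the 34721 entries of the expression table. AOC3 and AOC11 were grown from primary tumors that the carcinogen DMBA, applied to the buccal mucosa, had induced in C57BL/6 mice, and AOC3-LN and AOC11-LN from lymph node tumors of mouse 3 and mouse 11. All 4 lines were passaged under the skin of the flank of syngeneic mice, were depleted of fibroblasts and were then grown in serum-containing medium, with no treatment of the cultures named. RNA from each line was sequenced as 1 library, so differences between single lines lack a replicate check, and the AOC3 lines and the AOC11 lines each stand for 1 mouse. The tumor-bearing mice were male, and their age at harvest is not given in the labels.

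Type I and type III interferons bind receptors at the cell surface, and the kinases JAK1 and TYK2 then activate factors such as STAT2, which joins IRF9 in a complex that binds the interferon-stimulated response element of its target genes. The products of these targets detect viral RNA, block translation or entry, tag proteins with ISG15 or retain virus particles at the membrane. Many epithelial cells transcribe the same genes at a low level without infection, and the sensors and signaling factors of the pathway are themselves among its targets.

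Abundance was measured in FPKM, fragments corrected for the length of the transcript and the depth of the library, and values are given in the order AOC3, AOC3-LN, AOC11 and AOC11-LN unless stated otherwise. An estimate from the spacing of low values put the libraries at 28000000 fragments in AOC3-LN, the shallowest, and 32300000 to 33500000 in the others, and AOC3-LN also had the most entries at 0, 10813 against 9211 to 10010. All 7 epithelial markers passed the filter of 1 FPKM in at least 1 line, among them Epcam at 416 to 518 FPKM and Krt8 at 815 to 1078 FPKM. The basal markers were not alike in the 2 mice and did not all differ in the same direction. Krt5, at 499, 275, 4.99 and 17.0 FPKM, and Trp63, at 1.69, 2.10, 0.0848 and 0.841 FPKM, were lower in the AOC11 lines. Krt14, at 166, 150, 257 and 259 FPKM, was higher in the AOC11 lines. Of 6 leukocyte and macrophage markers, Ptprc, Adgre1 and Lyz2 were under 0.5 FPKM in every line. Csf1r was at 0.995, 0.435, 20.8 and 6.01 FPKM, higher in the AOC11 lines. Cd68, at 13.0, 8.79, 6.15 and 4.45 FPKM, and Cd14, at 7.31, 8.55, 6.83 and 6.27 FPKM, were lower there. The summed level of the 6 was 21.3, 17.8, 33.8 and 16.8 FPKM. Of 3 plasmacytoid and dendritic markers, Siglech and Itgax were under 0.5 FPKM in every line, and Flt3 was at 1.23, 0.897, 0.576 and 0.464 FPKM. All 4 T cell, 5 fibroblast and 3 endothelial markers were under 0.5 FPKM in every line.

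The effector genes were lowest in AOC3-LN and highest in AOC11-LN. Their median level was 1.18, 0.307, 2.25 and 6.18 FPKM. At least 1 FPKM was reached by 19, 10, 24 and 33 of the 36 genes. AOC3-LN had 7 of the genes listed at 0, against 1 in AOC3, 2 in AOC11 and 0 in AOC11-LN. AOC3-LN held the strictly lowest value of 31 of the 36 genes, where it did so for 30.4% of all 14165 entries that passed the filter, and AOC11-LN the strictly highest value of 29, where it did so for 32.1% of entries. Both held for 27 of the 36 genes and for 15.0% of entries. Mx2, which is among the 31, did not pass the filter. The heat map of levels shows this order along most rows. In these bulk libraries, fewer cells that transcribe a gene and less RNA per cell cannot be told apart.

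**Figure D1:**
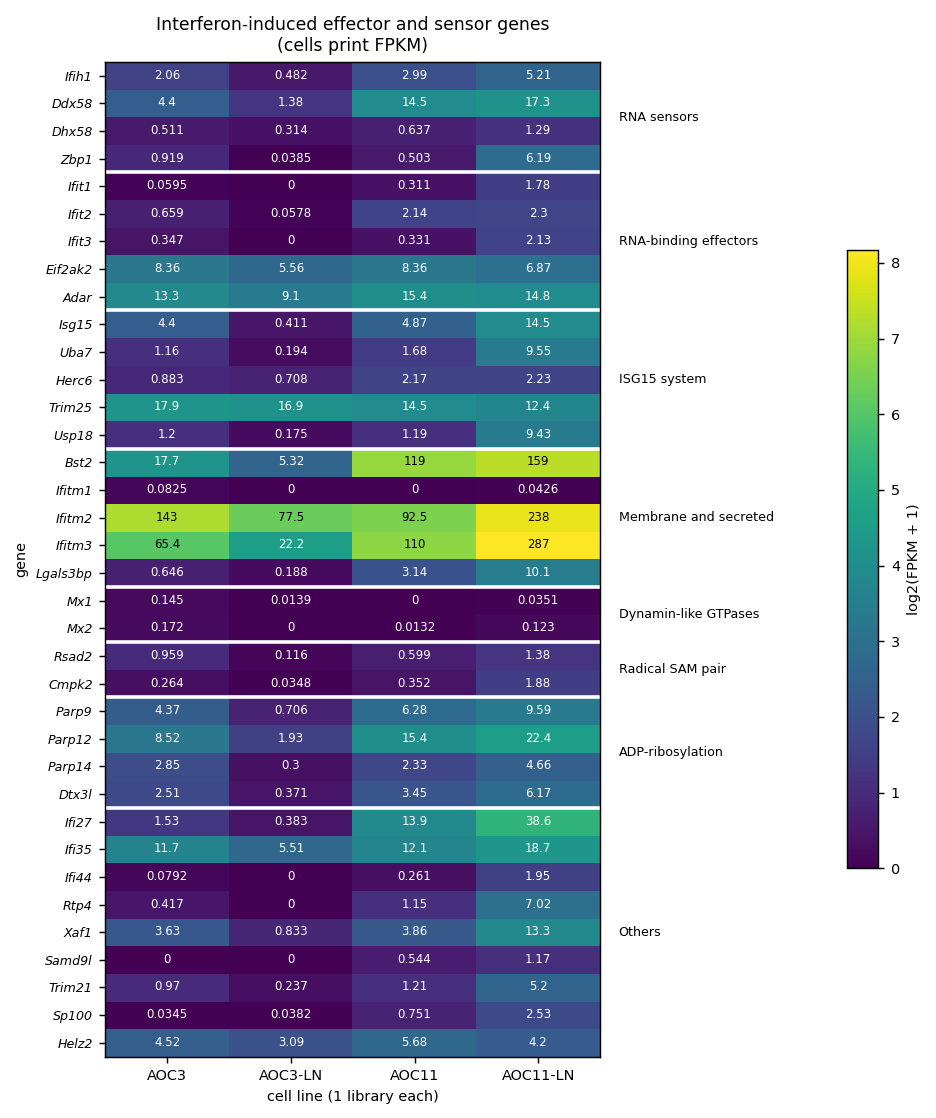
Heat map of the 36 effector genes (rows, grouped by role) in the 4 cell lines (columns, 1 library each), colored by log2(FPKM + 1) with the FPKM value printed in each cell. Dark purple marks low and yellow high values. The AOC3-LN column holds the most dark cells, with 10 genes at 1 FPKM or more, and the AOC11-LN column the fewest, with 33.

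Promoter sequence of the group was compared with that of all genes, because the interferon-activated complex recognizes a short repeated element. RefSeq promoters on GRCm38.p6, the assembly also named mm10, covered 250 bases before to 50 bases after the start and were given for 27 of the 36 genes. The core of the element, GAAANNGAAA on either strand, stood in 11 of the 27 genes (40.7%) and in 1079 of 27025 genes of the table (3.99%). The core of the gamma-activated sequence, an element of genes that respond to interferon gamma, TTCNNNGAA, stood in 6 of the 27 (22.2%) and in 2582 of all genes (9.55%). A match describes the letters of this window and not binding. Shown are 3 genes with the core and a higher level in the AOC11 lines (Isg15, Bst2 and Ifit1), 1 with the core and a flat level (Eif2ak2), and 1 with a large difference and no core (Lgals3bp), each from 150 bases before to 30 bases after the start on the strand of the gene, with the bases of each core match in capitals.
Isg15, chr4:156200789-156200968, minus strand: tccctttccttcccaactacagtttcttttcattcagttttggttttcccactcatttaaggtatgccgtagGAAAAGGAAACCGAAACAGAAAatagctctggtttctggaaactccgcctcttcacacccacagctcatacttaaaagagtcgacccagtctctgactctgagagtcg
Bst2, chr8:71537443-71537622, minus strand: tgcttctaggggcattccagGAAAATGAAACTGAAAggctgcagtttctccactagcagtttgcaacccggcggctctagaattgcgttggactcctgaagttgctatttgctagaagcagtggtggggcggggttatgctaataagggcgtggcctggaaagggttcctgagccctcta
Ifit1, chr19:34640739-34640918, plus strand: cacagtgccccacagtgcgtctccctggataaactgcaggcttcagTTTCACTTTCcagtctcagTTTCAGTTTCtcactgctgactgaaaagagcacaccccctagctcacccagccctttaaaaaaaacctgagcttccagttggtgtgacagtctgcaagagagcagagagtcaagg
Eif2ak2, chr17:78882543-78882722, minus strand: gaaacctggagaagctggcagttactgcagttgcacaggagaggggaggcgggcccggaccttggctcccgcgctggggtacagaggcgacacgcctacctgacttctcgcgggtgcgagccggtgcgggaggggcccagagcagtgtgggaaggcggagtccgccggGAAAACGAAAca
Lgals3bp, chr11:118401930-118402109, minus strand: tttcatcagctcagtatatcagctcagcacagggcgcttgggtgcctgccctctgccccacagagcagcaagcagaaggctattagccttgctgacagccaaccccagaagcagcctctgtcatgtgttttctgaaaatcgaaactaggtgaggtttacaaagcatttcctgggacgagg

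In Isg15, 3 matches overlap in 1 run that begins 78 bases before the start. Bst2 has 2 overlapping matches from 130 bases before the start, and Ifit1 has 2 separate ones, at 104 and 85 bases before it. In Eif2ak2 the only match lies after the start, at position 19. The core was also found in Ifih1, Ddx58, Ifit3, Ifitm2, Ifitm3, Rsad2 and Trim21. Between the AOC11 lines and the AOC3 lines, the 11 genes with the core had a median log2 difference of 1.19, with 6 above 1. The 16 without it had a median of 0.85, with 7 above 1. Of all entries that passed the filter, 6.00% were above 1. Genes with and without the core were therefore both found among those with large differences.

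**Figure D2:**
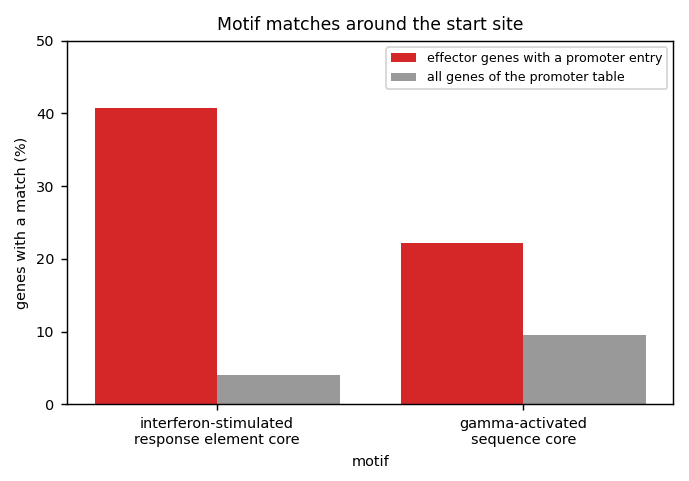
Share of genes (vertical axis, percent) with at least 1 match to the core of the interferon-stimulated response element or of the gamma-activated sequence, in the 27 effector genes with a RefSeq promoter (red) and in all 27025 genes of the promoter table (grey). The first core was in 40.7% against 3.99% and the second in 22.2% against 9.55%.

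To ask how the 2 mice differed, the mean of AOC11 and AOC11-LN was compared with that of AOC3 and AOC3-LN on the log2(FPKM + 1) scale after quantile normalization, and log2 differences above 1 or below -1 were counted. The effector genes were higher in the AOC11 lines, with a median log2 difference of 1.06 against -0.01 over all entries that passed the filter. The difference was above 1 for 18 of the 36 genes, a share of 6.00% among all entries, and below -1 for 0, against 5.10%. Both AOC11 lines stood above both AOC3 lines for 24 of the 36 genes, a pattern that 30.5% of entries had. Leaving out AOC3-LN or AOC11-LN reduced the 18 genes to 10 in each case. The pseudocount of 1 keeps genes under 1 FPKM in every line, here Mx1, Mx2 and Ifitm1, from passing the threshold whatever their ratio. It also shrinks the differences of other genes at low level. With a pseudocount of 0.1, 26 of the 36 genes were above 1, against 9.74% of all entries.

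The difference was larger between the lymph node lines than between the primary lines. Between the primary lines, AOC11 minus AOC3, the median was 0.29, and 5 of the 36 genes were above 1 (5.69% of all entries) and 0 below -1 (6.25%). These were Ddx58, Ifit2, Bst2, Lgals3bp and Ifi27. Between the lymph node lines, AOC11-LN minus AOC3-LN, the median was 1.59, and 25 genes were above 1 (8.69%) and 0 below -1 (7.58%). Trim25 was the only gene of the 36 that was lower in AOC11-LN than in AOC3-LN. The plot of the difference at each site shows most genes near 0 to 1 between the primary lines and from -0.53 to 4.76 between the lymph node lines.

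limma with Benjamini-Hochberg adjustment took the 2 lines of each mouse as its replicates and tested the 33 genes that passed the filter. Of these, 0 had an adjusted p under 0.05 in limma (0.205% of all entries, 29 of 14165), and 15 had an unadjusted p under 0.05 (18.7% of entries). Dhx58, Zbp1, Ifit1, Ifit3, Rsad2, Cmpk2, Ifi44, Samd9l and Sp100 passed the filter only through AOC11-LN, where they were highest. Samd9l and Sp100 were among the 15. The lowest adjusted p of the group was 0.0868, for Bst2. At this threshold limma detected no difference between the mice for any tested gene of the group. With 2 lines per mouse, this does not show that the levels were alike. When limma was fitted anew to the 11380 protein-coding entries alone, Bst2 (adjusted p = 0.0325) and Ifi27 (adjusted p = 0.036) passed its test. That fit estimated the spread anew as well, and 256 of its entries passed, so the result depends on the set of entries fitted.

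**Figure D3:**
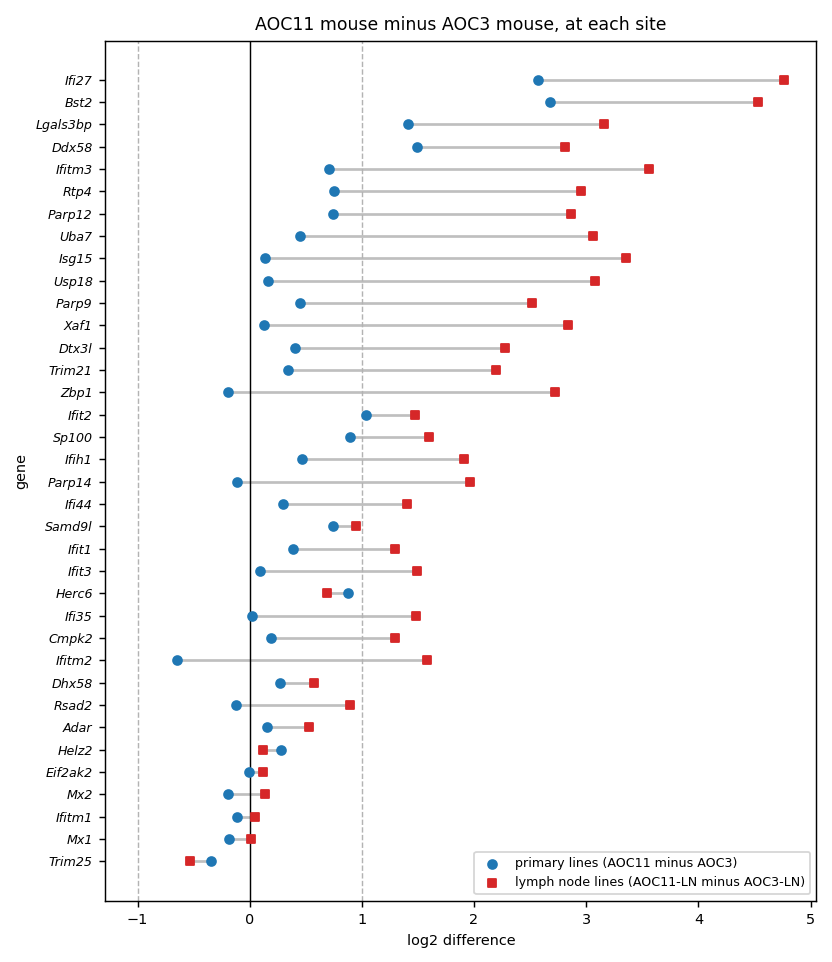
Log2 difference of each effector gene between the mice (horizontal axis, AOC11 mouse minus AOC3 mouse, log2(FPKM + 1) after quantile normalization) for the primary lines and for the lymph node lines, with the genes in rows and 1 library behind each value compared. Above 1 are 5 genes between the primary lines and 25 between the lymph node lines.

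The RNA sensors were higher in the AOC11 lines for 3 of 4 genes by the threshold (6.00% of all entries). Ddx58 (chr4:40203773-40239828, minus strand), which encodes the sensor RIG-I for viral RNA ends, was at 4.40, 1.38, 14.5 and 17.3 FPKM. Both AOC11 lines exceeded both AOC3 lines, and the log2 difference was 2.15 (standard error 0.40, adjusted p = 0.116 in limma). Ifih1, which encodes MDA5, a sensor of long double-stranded RNA, was at 2.06, 0.482, 2.99 and 5.21 FPKM, a log2 difference of 1.19 without overlap of the groups. Zbp1, a sensor of Z-form nucleic acids that can start necroptosis, was at 0.919, 0.0385, 0.503 and 6.19 FPKM. Its level in AOC11 was below that in AOC3, so its log2 difference of 1.26 came from the lymph node lines, and the primary lines differed by -0.20. Dhx58, which encodes the regulator LGP2, was at 0.314 to 1.29 FPKM and differed by 0.42.

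The RNA-binding effectors divided into 3 genes at low level and 2 that were expressed in every line with small differences. Ifit1, Ifit2 and Ifit3 encode proteins that bind viral RNA and translation factors. Ifit2 (chr19:34550694-34576419, plus strand) was at 0.659, 0.0578, 2.14 and 2.30 FPKM, a log2 difference of 1.26 with no overlap between the mice. Ifit1 was at 0.0595, 0, 0.311 and 1.78 FPKM, and Ifit3 at 0.347, 0, 0.331 and 2.13 FPKM. Both were listed at 0 in AOC3-LN, and their highest values, in AOC11-LN, correspond to about 143 and 109 fragments. The Ifit genes lie side by side on chromosome 19 and have near copies, among which the counting could split reads. Eif2ak2, which encodes the kinase PKR that stops translation on double-stranded RNA, was at 8.36, 5.56, 8.36 and 6.87 FPKM, a log2 difference of 0.06 whose sign depended on the line left out. Adar, an RNA-editing enzyme that also has a constitutive form, was at 13.3, 9.10, 15.4 and 14.8 FPKM, a log2 difference of 0.34.

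In the ISG15 system, the modifier, its activating enzyme and its protease were above the threshold. At the pseudocount of 1, the ligases Herc6 and Trim25 were not. Isg15 (chr4:156199424-156200818, minus strand), the ubiquitin-like modifier, was at 4.40, 0.411, 4.87 and 14.5 FPKM. The values in AOC3 and AOC11 were close together, and AOC3-LN and AOC11-LN lay on either side of them. Its log2 difference between the mice was 1.74. Uba7, the enzyme that activates ISG15, was at 1.16, 0.194, 1.68 and 9.55 FPKM, a log2 difference of 1.76. Usp18, the protease that removes ISG15 and restrains the interferon receptor, was at 1.20, 0.175, 1.19 and 9.43 FPKM, a log2 difference of 1.62 with AOC3 and AOC11 at nearly the same level. Herc6, the main ISG15 ligase of the mouse, was at 0.883, 0.708, 2.17 and 2.23 FPKM, so that it separated the mice by 0.78 and hardly differed between the lines of a mouse. Its FPKM was 2.46 times higher in AOC11 than in AOC3 and 3.14 times higher in AOC11-LN than in AOC3-LN. With a pseudocount of 0.1 the log2 difference of Herc6 was 1.28, above the threshold. Trim25, a ubiquitin ligase that acts with RIG-I, was at 17.9, 16.9, 14.5 and 12.4 FPKM, a log2 difference of -0.44 and the lowest of the 36.

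Membrane and secreted proteins included the 3 highest levels of the list (Bst2, Ifitm2 and Ifitm3) and the largest median difference of the groups of more than 2 genes, 2.13. Bst2 (chr8:71534255-71537456, minus strand), or tetherin, which holds budding virus at the cell surface, was at 17.7, 5.32, 119 and 159 FPKM. Both AOC11 lines were far above both AOC3 lines, by 6.69 times in FPKM between the primary lines and by 29.8 times between the lymph node lines. The log2 difference was 3.60 (standard error 0.51, adjusted p = 0.0868 in limma). Lgals3bp, a secreted glycoprotein that binds galectins, was at 0.646, 0.188, 3.14 and 10.1 FPKM, again without overlap, and its log2 difference reached 2.29 (limma, adjusted p = 0.139, standard error 0.51).

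The Ifitm proteins hinder the fusion of viruses with endosomal membranes, and their genes lie close together on chromosome 7. Ifitm3 (chr7:141009586-141010770, minus strand) was at 65.4, 22.2, 110 and 287 FPKM, a log2 difference of 2.13. Ifitm2 was at 143, 77.5, 92.5 and 238 FPKM, so that the AOC3 line exceeded the AOC11 line and the groups overlapped. Its log2 difference was 0.46, and -0.21 without AOC11-LN. Ifitm1 was at 0.0825, 0, 0 and 0.0426 FPKM and did not pass the filter. The family thus ran from near 0 to the highest levels of the list, with the caution that its members resemble each other in sequence.

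Both dynamin-like GTPases, which trap viral nucleoproteins, were nearly silent. Mx1 was at 0.145, 0.0139, 0 and 0.0351 FPKM and Mx2 at 0.172, 0, 0.0132 and 0.123 FPKM, and both were highest in AOC3. Mx1 is defective in many inbred mouse strains, C57BL/6 among them. Rsad2 and Cmpk2 lie head to head on chromosome 12. Rsad2, which encodes the radical SAM enzyme viperin, was at 0.959, 0.116, 0.599 and 1.38 FPKM, and Cmpk2, a nucleotide kinase that supplies its substrate, at 0.264, 0.0348, 0.352 and 1.88 FPKM. Both were lowest in AOC3-LN and highest in AOC11-LN, and neither passed the threshold between the mice, with log2 differences of 0.38 and 0.75.

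All 4 ADP-ribosylation genes were lowest in AOC3-LN and highest in AOC11-LN. Parp12, a mono-ADP-ribosyltransferase, was at 8.52, 1.93, 15.4 and 22.4 FPKM, a log2 difference of 1.80. Parp9 was at 4.37, 0.706, 6.28 and 9.59 FPKM, and Dtx3l, the ubiquitin ligase that partners it, at 2.51, 0.371, 3.45 and 6.17 FPKM. These partners had log2 differences of 1.48 and 1.34, and their genes overlap on opposite strands of chromosome 16 (Parp9 from 35938470, Dtx3l to 35939151), where reads cannot be assigned to either gene without strand, which the default settings named in the study's methods do not use. Parp14, a further transferase beside them, was at 2.85, 0.300, 2.33 and 4.66 FPKM, and its primary lines differed by -0.11.

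Of the 9 remaining genes, 5 were above the threshold between the mice (6.00% of all entries). Ifi27 (chr12:103434211-103440239, plus strand), a mitochondrial and nuclear envelope protein, was at 1.53, 0.383, 13.9 and 38.6 FPKM. Its log2 difference of 3.67 was the largest of the 36 (standard error 0.56, adjusted p = 0.0943 in limma), with both AOC11 lines above both AOC3 lines and FPKM 9.11 times higher in AOC11 than in AOC3. Rtp4, which assists receptor trafficking and binds nucleic acid, was at 0.417, 0, 1.15 and 7.02 FPKM, a log2 difference of 1.85. Xaf1, a proapoptotic antagonist of XIAP, was at 3.63, 0.833, 3.86 and 13.3 FPKM, a log2 difference of 1.48 with the primary lines 0.12 apart. Trim21, the cytosolic antibody receptor, and Sp100, a component of nuclear bodies, had log2 differences of 1.26 and 1.25. Sp100 was at 0.0345, 0.0382, 0.751 and 2.53 FPKM, and was the only gene of the 36 with a higher value in AOC3-LN than in AOC3. Samd9l, an inhibitor of growth and translation, was listed at 0 in both AOC3 lines and was at 0.544 and 1.17 FPKM in the AOC11 lines. Trim21 was at 0.970, 0.237, 1.21 and 5.20 FPKM. Ifi44, at 0.0792, 0, 0.261 and 1.95 FPKM, and Ifi35, at 11.7, 5.51, 12.1 and 18.7 FPKM, differed by 0.85 and 0.75. Both were lowest in AOC3-LN and highest in AOC11-LN. Helz2, a helicase, differed by 0.20, with levels of 3.09 to 5.68 FPKM and its highest value in AOC11. Rtp4 overlaps Masp1 in the annotation, Ifi35 overlaps Gm11626 and Uba7 overlaps Gm20661, and Sp100 has near copies, so their values are less certain. The same limit applies to Dhx58, Eif2ak2, Adar, Herc6, Usp18, Ifitm2 and Parp14, which also overlap other annotated genes.

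Within each mouse, the lymph node line was set against the primary line, and the effector genes differed in opposite directions in the 2 mice. AOC3-LN was lower than AOC3 for 34 of the 36 genes, with a median log2 difference of -0.59 against 0.02 over all entries. The difference was below -1 for 9 genes (3.42% of all entries) and above 1 for 0 (2.11%). These 9 were Ddx58, Isg15, Bst2, Ifitm3, Xaf1 and all 4 ADP-ribosylation genes. Isg15 was 10.7 times lower in FPKM in AOC3-LN than in AOC3, where its levels correspond to about 6.98 and 87.4 fragments. The lower depth of AOC3-LN and its greater number of entries at 0, given above, run the same way as this difference, and their part in it was not tested.

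AOC11-LN was higher than AOC11 for 30 of the 36 genes, with a median log2 difference of 0.59 against -0.02 over all entries. The difference was above 1 for 11 genes (4.97% of all entries) and below -1 for 0 (3.14%). These 11 were Zbp1, Isg15, Uba7, Usp18, Ifitm2, Ifitm3, Lgals3bp, Ifi27, Rtp4, Xaf1 and Trim21. Without quantile normalization the count was 16, and the share of all entries in that setting was not computed. Usp18 was 7.89 times and Uba7 5.67 times higher in FPKM in AOC11-LN than in AOC11. No ADP-ribosylation gene passed the threshold here, with log2 differences of 0.51 to 0.60. Bst2 differed by 0.37, so that the gene with the second largest difference between the mice was among the less variable within mouse 11. The 6 genes that were lower in AOC11-LN were Ifit2, Eif2ak2, Adar, Herc6, Trim25 and Helz2, of which Ifit2 and Herc6 were higher under both other scalings.

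A lower value in AOC3-LN together with a higher value in AOC11-LN was found for 28 of the 36 genes, and for 23.3% of all entries that passed the filter. The 28 include Ifitm1, Mx1 and Mx2, which did not pass it and were at 0.123 FPKM or less in AOC11-LN. The 2 shifts have no library in common. Past the threshold in both mice, in opposite directions, were 3 genes (0.678% of all entries), namely Isg15, Ifitm3 and Xaf1. Isg15 shifted by -1.86 in the mouse 3 lines and by 1.36 in the mouse 11 lines, Ifitm3 by -1.50 and 1.35, and Xaf1 by -1.22 and 1.49. The plot of both shifts places these 3 genes and most others in the quadrant of lower values in AOC3-LN and higher values in AOC11-LN.

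**Figure D4:**
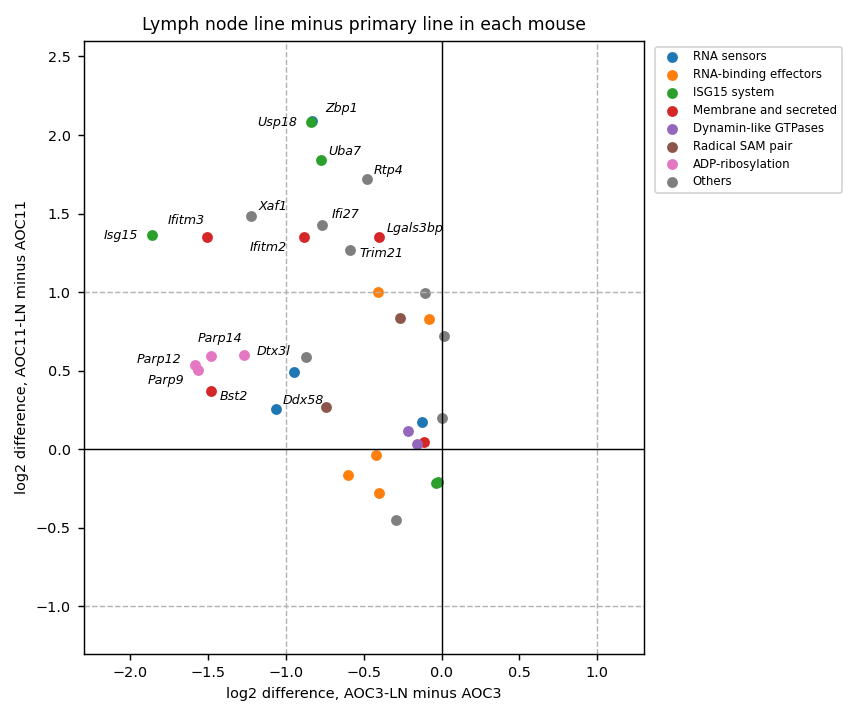
Log2 difference between the lymph node line and the primary line of mouse 3 (horizontal axis) and of mouse 11 (vertical axis), on the log2(FPKM + 1) scale after quantile normalization, with 1 point for each effector gene colored by role and dashed lines at 1 and -1. Of the 36 genes, 28 lie to the left of 0 and above 0, and Isg15, Ifitm3 and Xaf1 pass both dashed lines.

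The genes upstream of the effectors were read from a separate list. Of 20 interferon genes listed, 5 had an entry. The numbered Ifna genes, Ifnl2 and Ifnl3 had none, so their expression could not be read. None of the 5 interferon genes with an entry passed the filter, and the highest value was 0.122 FPKM, for Ifne in AOC11-LN. Ifnb1 was at 0, 0, 0 and 0.0522 FPKM, and Ifng was listed at 0 in all lines. All 18 receptors, kinases, transcription factors, adaptors and brakes that were read passed the filter. Between the mice, 2 of the 18 were above 1 (6.00% of all entries), Irf9 and Tmem173, and 1 was below -1 (5.10%), Socs3, a feedback inhibitor of JAK kinases at 13.4, 14.4, 7.34 and 4.82 FPKM. The receptor subunit Ifnar1 was at 14.1, 12.7, 9.80 and 9.95 FPKM, and Ifnar2, its partner, at 26.0, 12.4, 14.8 and 16.6 FPKM, a log2 difference of -0.95 from AOC3 to AOC3-LN. All 6 receptors and kinases were lower in AOC3-LN than in AOC3, and none passed the threshold in any comparison.

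Of the transcription factors, Irf9, the DNA-binding subunit of the complex, was at 2.23, 1.25, 3.90 and 6.56 FPKM, a log2 difference of 1.13 between the mice. Stat2 was at 6.72, 3.59, 5.40 and 9.18 FPKM, a log2 difference of 0.36. Both were lowest in AOC3-LN and highest in AOC11-LN, as most effectors were. Irf1, an interferon-induced factor that also acts on its own, was at 68.1, 21.1, 66.9 and 96.5 FPKM. Its log2 difference from AOC3 to AOC3-LN was -1.65, past the threshold. The heat map of pathway genes gives the level of each in every line.

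Among the sensing adaptors, 2 of 5 were below -1 from AOC3 to AOC3-LN (3.42% of all entries). Tmem173, which encodes the adaptor STING of the cytosolic DNA pathway, was at 2.87, 0.0909, 4.07 and 6.59 FPKM, a log2 difference of -1.77 within mouse 3 and 0.52 within mouse 11. Ikbke, a kinase that activates interferon regulatory factors, was at 21.9, 3.97, 13.2 and 13.6 FPKM, with log2 differences of -2.10 and 0.03. Mavs, the adaptor that RIG-I and MDA5 share, was at 16.1, 15.6, 18.8 and 20.0 FPKM, with log2 differences of 0.03 and 0.10. The sensors Ddx58 and Ifih1 therefore differed between the lines while the level of their shared adaptor stayed within 0.24 on the log2 scale in every comparison.

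**Figure D5:**
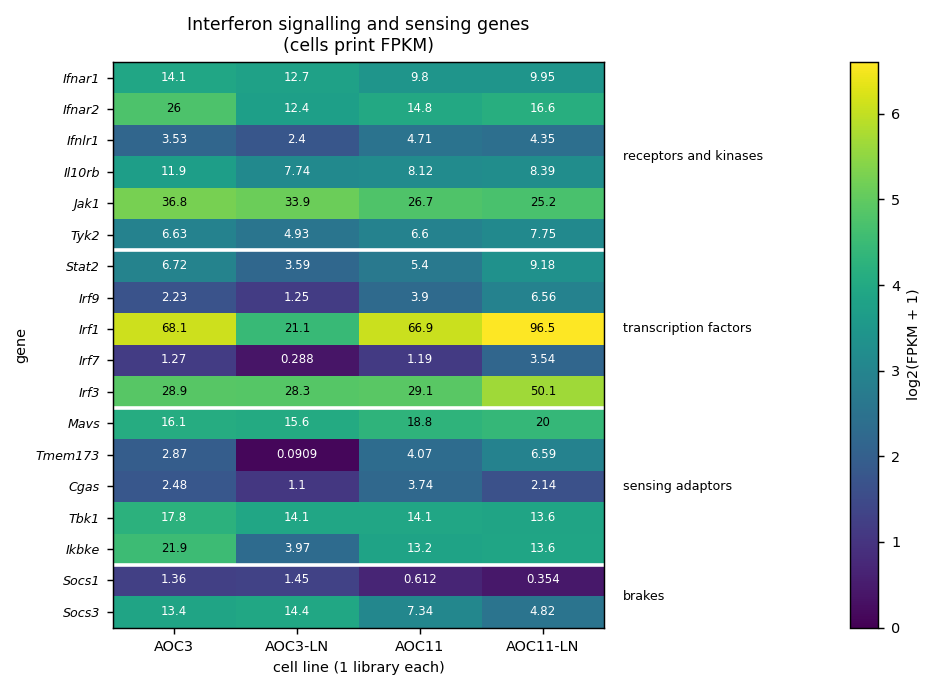
Heat map of interferon pathway genes (rows, grouped as receptors and kinases, transcription factors, sensing adaptors and brakes) in the 4 cell lines (columns, 1 library each), colored by log2(FPKM + 1) with FPKM printed in each cell. Dark purple marks low and yellow high values, the lowest being Tmem173 at 0.0909 FPKM in AOC3-LN and the highest Irf1 at 96.5 FPKM in AOC11-LN.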

How the data were processed

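RNA was measured by stranded, paired-end mRNA sequencing of 4 cell lines, with 1 library each. The authors trimmed reads with Trim Galore, mapped them to mm10 with TopHat2 and estimated FPKM with Cufflinks under default settings on GENCODE M21, per the study's methods and processing notes. The deposited values are FPKM, neither log2-transformed nor quantile-normalized. Both steps, which the study's methods name without a pseudocount, were carried out here over all 34721 entries, with a pseudocount of 1 chosen for this purpose. The filter of 1 FPKM or more in at least 1 line retained 14165 entries and 33 of the 36 effector genes. Differences above 1 or below -1 on the log2 scale were counted over all 36 genes. limma 3.58.1 in R 4.3.3 (lmFit, eBayes with trend) was fitted to all 14165 entries with mouse as the term. The code was also run on simulated data with a fixed small spread and changes only in genes well above the floor. That run does not show how well limma detects differences in the effector genes. limma treats lines as replicates, so p-values measure the spread between these lines only, not between mice.

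Depth was estimated from whole multiples of a common step in low FPKM values of 9528 genes with 1 transcript (71.7% to 75.1% of values fell within 0.1 of a multiple, against 20% by chance), and read counts were not used here. A fragment on a transcript of 2 kb is then worth 0.0163 to 0.0193 FPKM, and counts given as fragments are estimates. The kit was stranded, but the methods name no strand option, and the default of TopHat2 and Cufflinks does not use strand. Positions of genes are from GENCODE M21 on mm10. The genes, their roles and the pathway and marker lists were chosen with earlier results of these data known. The text names all 36 genes and gives levels in every line for those with the largest difference of each role, and ranges or differences for others. Alternatives were another pseudocount, no quantile normalization, scaling by the median, a 1.5-fold threshold, other filters, protein-coding genes only, site as a second term and leaving out each line. Interferon genes without an entry were not analysed here. A further gene of the pathway list is not reported here.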

Additional observations from a re-analysis of the deposited data

Results flagged for a closer look

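Isg15, Ifitm3 and Xaf1 passed the threshold in both mice in opposite directions, lower in AOC3-LN than in AOC3 and higher in AOC11-LN than in AOC11. The shift of mouse 11 minus that of mouse 3 was 3.22 on the log2 scale for Isg15, 2.86 for Ifitm3 and 2.71 for Xaf1. Each shift rests on 1 library per line, and the difference between the mice was not tested. The same 3 genes passed without quantile normalization and after scaling by the median, and 12 genes, these 3 among them, passed with a pseudocount of 0.1. At that pseudocount, 6.42% of all entries were below -1 in the mouse 3 lines and 8.46% above 1 in the mouse 11 lines. The share of all entries past both thresholds was not computed in these settings.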

How the results depend on the processing

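With a pseudocount of 0.1, which gives more weight to low values, the median log2 difference of the effector genes between the mice was 2.06, and those of the primary lines, the lymph node lines and the mouse 3 lines were 0.56, 3.46 and -1.44. It also gave 13 genes past the threshold between the primary lines, 11 higher (9.02% of all entries) and 2 lower (9.59%) in AOC11, and 22 in the mouse 3 lines, all lower in AOC3-LN (6.42%). At 1.5-fold, 12 genes passed between the primary lines, 11 of them higher in AOC11 (14.4%), and 19 in the lines of each mouse, all lower in AOC3-LN (7.75%) or higher in AOC11-LN (12.9%). Scaling by the median gave 0.18 for the primary lines. Leaving out 1 line moved the 18 genes between the mice to between 10 (without AOC3-LN, and without AOC11-LN) and 25 (without AOC11), and their median to between 0.63 (without AOC11-LN) and 1.40. In limma, 2 of the 33 genes tested passed among protein-coding genes only. With the other pseudocount, without quantile normalization, with either other filter or with site as a second term, 0 genes of the group passed. In these fits the unadjusted count ranged from 6 (filter of 5 FPKM) to 18 genes (protein-coding genes only). Of 252 values of single genes between the mice under an alternative, 230 stayed within the spread between sites, 22 moved further, and 0 of the called ones changed sign. For the 28 genes with opposite shifts in the 2 mice, leaving out a line could not move a value past that spread. The 230 is therefore not a measure of stability. Zbp1, for example, went from 1.26 to 0.22 without AOC11-LN and was counted as within the spread. The sign changed for Eif2ak2, Ifitm1, Ifitm2, Mx2 and Helz2 when a line was left out. The fit with site pairs the lines of the same site across the mice and leaves 1 residual degree of freedom. Values near 0 FPKM rest on few fragments, which limits Ifit1, Ifit3, Zbp1 and other genes in AOC3-LN.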
